A study of Mus musculus with 6 samples.

Results

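The genes described here are the vascular endothelial growth factor (VEGF) ligands Vegfa, Vegfb, Vegfc, Vegfd and Pgf, their receptors Flt1, Kdr and Flt4, and the co-receptors Nrp1 and Nrp2. They were chosen by name, and every probe set annotated to one of these symbols alone was taken, which gave 25 probe sets of 10 genes among 45037 probe sets of 18193 genes. RNA came from 344SQ cells, a highly metastatic mouse lung adenocarcinoma line that was grown from a subcutaneous tumour site of a p53R172H∆g/+ K-rasLA1/+ animal, so both groups carry a mutant p53 allele and an activated K-ras allele. One group had been transduced with a lentivirus for the miR-200b-200a-429 cluster and the other with the control vector, and transduced pools positive for GFP were selected with puromycin in the same serum-containing medium. Each group gave 3 cultures with 1 Affymetrix array each, lettered A to C within its group. The labels name no separately transduced pools, so the p-values cover only the spread among these cultures, which may be technical, and a lasting difference between pools cannot be told apart from the microRNAs.

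VEGF ligands are secreted dimers that bind receptor tyrosine kinases. VEGF-A signals mainly through Kdr (VEGFR2) to drive vessel growth, PlGF (from Pgf) and VEGF-B bind Flt1 (VEGFR1), and VEGF-C and VEGF-D act through Flt4 (VEGFR3) on lymphatic vessels. Neuropilins bind VEGFs and class 3 semaphorins. Tumour cells are a common source of VEGF-A, and Vegfa, Flt1 and Kdr have each been described in the literature as miR-200 targets.

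The 3 mature microRNAs of the cluster are shown because their seeds, bases 2 to 8 in capitals, decide which transcripts they can pair with. The sequences are from RefSeq (GRCm38.p6, minus strand).
miR-200b-3p, chr4:156055685-156055706: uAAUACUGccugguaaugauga
miR-429-3p, chr4:156053916-156053937: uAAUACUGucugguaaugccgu
miR-200a-3p, chr4:156054911-156054932: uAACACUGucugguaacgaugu
miR-200b-3p and miR-429-3p share 1 seed, and the seed of miR-200a-3p differs from it by U4C, counted from the 5′ base of the mature microRNA. The microRNAs themselves were not analysed here, and target sites in the family's transcripts were not analysed here.

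Forced miR-200 expression went with no VEGF family change past the threshold. Of the 25 probe sets, 0 passed at an adjusted p of 0.05 in limma, where 0.744% of all probe sets passed. At an unadjusted p under 0.05 in limma, 6 of the 25 were reached, 4 higher and 2 lower in the miR-200 cells, against 14.1% of all probe sets. The groups did not overlap for 7 of the 25, against 21.3% of all probe sets. Of these, 5 were higher (11.6% of all probe sets) and 2 lower (9.76%). They belong to Pgf, Nrp2, Flt1 and Vegfd. By the brightest probe set of each gene, 2 of the 10 genes had an unadjusted p under 0.05 in limma (14.8% of all genes) and 3 had groups without overlap (23.5% of all genes), all higher. Values are log2 signals after quantile normalization, and differences are miR-200 minus control on the log2 scale with the standard error of the fit.

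Expression levels on the arrays differ between probe sets for reasons other than transcript amount, so levels are compared only within a probe set. The highest value of the 3 probe sets for a bacterial trp gene, 5.28, served as a gauge of background. Of the 25 family probe sets, 17 lay above it on all 6 arrays, 3 lay under it on all 6 and 5 were mixed. In such bulk RNA, fewer cells with a transcript and less transcript per cell cannot be told apart.

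Among the ligands, Pgf had the largest difference. Pgf encodes placental growth factor, a ligand of Flt1 but not of Kdr. Its single probe set read 5.94, 6.26 and 6.04 in controls A to C and 10.04, 7.73 and 8.10 in miR-200 A to C. All 3 miR-200 cultures lay above all 3 controls, and miR-200 A stood far above the other two. The means were 6.08 ± 0.17 and 8.63 ± 1.24 (SD, n = 3 each), a difference of 2.55 ± 0.62, or 5.84-fold, with a 95% interval from 0.99 to 4.10. It did not pass (limma, adjusted p = 0.174). Without miR-200 A the difference was 1.84, and limma gave an adjusted p = 0.0513.

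The promoter of Pgf is shown because of that difference, with matches to the E-box bound by Zeb1 and Zeb2, CACCTG, in capitals. These repressors are the best known targets of the miR-200 family. The sequence is the 250 bases before a RefSeq transcript start (GRCm38.p6, minus strand, chr12:85177314-85177563), read 5′ to 3′.
Pgf: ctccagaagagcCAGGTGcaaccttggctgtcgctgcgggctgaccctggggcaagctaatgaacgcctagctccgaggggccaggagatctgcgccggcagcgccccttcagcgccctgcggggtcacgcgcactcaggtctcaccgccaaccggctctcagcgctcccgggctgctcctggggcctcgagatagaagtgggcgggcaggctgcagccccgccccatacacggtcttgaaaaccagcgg
The match is on the opposite strand, as CAGGTG. On either strand the motif is in 3 of the 12 windows of the 10 family genes, those of Pgf, Flt4 and Vegfa. It is in 17.2% of all 32851 promoter windows of that length. For Pgf and Vegfa it is in 1 of 2 windows listed. The 5-base core of the hypoxia response element, ACGTG, is in 1 of the 12 windows, of Vegfa, and in 16.6% of all windows. The Vegfa matches to both motifs lie in chr17:46025164-46025413 on the minus strand. That window is downstream of the other Vegfa window, chr17:46032378-46032627, which holds neither motif. A match of letters is not evidence of binding.

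Vegfa, the main driver of tumour angiogenesis, varied between cultures more than between groups. Its brighter probe set read 10.93, 11.84 and 11.03 in controls A to C and 12.08, 10.22 and 10.12 in miR-200 A to C. The highest and the lowest values of all 6 arrays were both in miR-200 cultures, and the groups overlapped. The means were 11.27 ± 0.50 and 10.81 ± 1.11, a difference of -0.46 ± 0.60 (limma, adjusted p = 0.783), with an interval from -1.96 to 1.04. The other Vegfa probe set had a difference of the opposite sign, 0.23 ± 0.32 (limma, adjusted p = 0.802), with values from 8.27 to 8.75 in controls and from 8.25 to 9.32 in miR-200 cells.

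Vegfb, a ligand of Flt1, read 7.66 ± 0.24 and 7.29 ± 0.28, and its values overlapped (limma, adjusted p = 0.504). The 3 probe sets of the lymphangiogenic ligand Vegfc lay near or under the background gauge, with values from 0.996 to 6.40 in controls and from 3.61 to 6.56 in miR-200 cells. Their differences were 1.31 ± 0.80, 0.60 ± 0.60 and 0.13 ± 0.25, with overlapping values and adjusted p in limma from 0.531 to 0.864.

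Vegfd, the second lymphangiogenic ligand, gave no single picture. One probe set read 4.14, 3.56 and 4.16 in the controls and 2.82, 2.34 and 1.75 in the miR-200 cells, a difference of -1.65 ± 0.33 (limma, adjusted p = 0.121). The groups did not overlap there, but all 6 values lay under the gauge, so no fold is given. The other Vegfd probe sets, above the gauge on every array, differed by -0.05 ± 0.33 and -0.23 ± 0.34 with overlapping values.

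**Figure D1:**
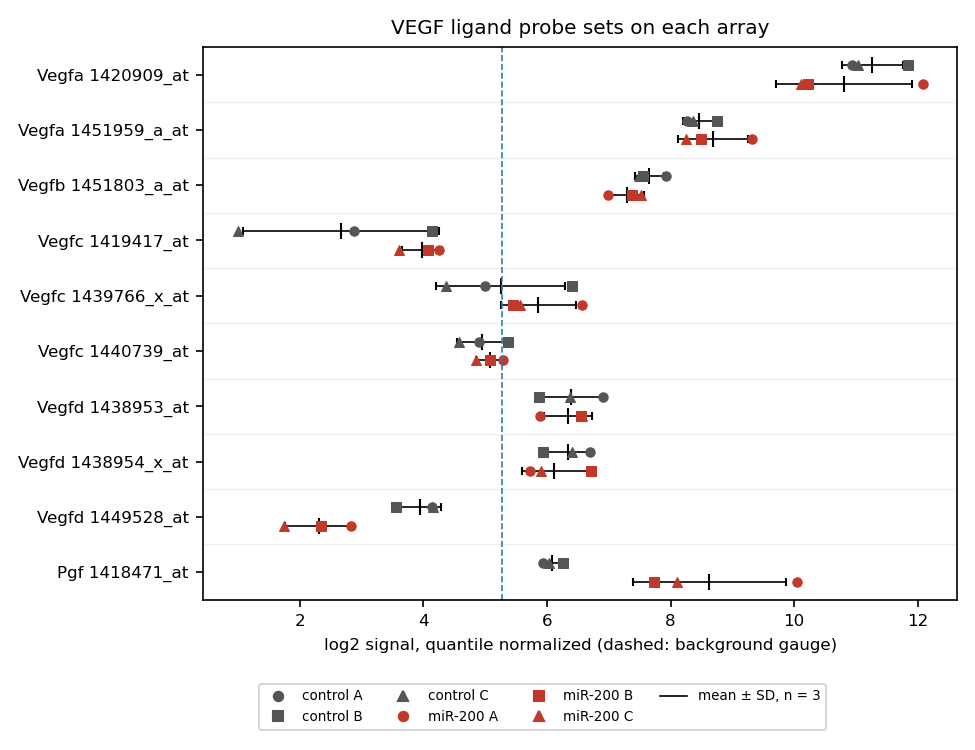
Log2 signal (x axis, quantile normalized) of each ligand probe set (rows) on each of the 6 arrays, control in grey and miR-200 in red, with the mean ± SD of each group (n = 3) in black and the background gauge of 5.28 dashed. The 3 miR-200 values of Pgf, 7.73 to 10.04, lie above its controls, 5.94 to 6.26, while both probe sets of Vegfa overlap.

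The receptor Flt1 differed in opposite directions between its probe sets. Flt1 binds VEGF-A, VEGF-B and PlGF, and its gene also yields shorter transcripts for a soluble form that traps ligand. Which form each probe set reads was not analysed here. The brightest probe set read 7.09, 7.08 and 7.21 in controls A to C and 7.56, 7.29 and 7.34 in miR-200 A to C. The miR-200 values were higher without overlap, by 0.27 ± 0.14 (limma, adjusted p = 0.439).

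A dimmer Flt1 probe set read 5.83, 6.26 and 5.77 in the controls and 5.39, 5.03 and 5.35 in the miR-200 cells. Here the miR-200 values were lower without overlap, by -0.70 ± 0.20 (limma, adjusted p = 0.224), at least 1.60-fold, since the miR-200 mean of 5.26 was just under the gauge. The other Flt1 probe sets differed by -0.13 ± 0.16 and -0.14 ± 0.38, with overlapping values and adjusted p in limma of 0.764 and 0.908. The mean of all 4 probe sets differed by -0.17 (limma, adjusted p = 0.728).

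The genes most like Flt1 in pattern, by its brightest probe set, were Atxn2, Wdr60 and Pisd. Likeness was the root mean square difference over the 6 arrays after each gene's mean was subtracted, among 9097 other genes at or above the median level. It was 0.029, 0.034 and 0.038 on the log2 scale, beside a range of 0.48 for Flt1 over the arrays.

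Kdr, the main signalling receptor for VEGF-A on endothelium, lay under the gauge on all 6 arrays. Its values were 3.06 to 4.24 in controls and 3.27 to 4.63 in miR-200 cells (limma, adjusted p = 0.660). Flt4, the receptor for VEGF-C and VEGF-D, read 8.53 ± 0.22 and 8.44 ± 0.41 on its brighter probe set, with overlapping values. Its interval ran from -0.73 to 0.54 (limma, adjusted p = 0.903). The other Flt4 probe set differed by -0.16 ± 0.24 (limma, adjusted p = 0.813).

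Nrp2, a co-receptor for VEGF-C and a receptor for class 3 semaphorins, gave the most even difference of the family. Its brightest probe set read 9.82, 9.99 and 9.91 in the controls and 10.68, 10.62 and 10.45 in miR-200 A, B and C. A second read 7.97, 8.05 and 8.11, then 8.78, 8.73 and 8.79. Another read 8.46, 8.34 and 8.58, then 10.00, 9.45 and 9.34. In these 3 probe sets every miR-200 value lay above every control.

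The differences of Nrp2 were 0.67 ± 0.13, 0.72 ± 0.12 and 1.14 ± 0.21 in that order, or 1.59-fold, 1.65-fold and 2.20-fold higher. The adjusted p in limma were 0.115, 0.0809 and 0.103, all above the threshold. All 3 passed once the dimmest 40% of the array was left out (adjusted p in limma of 0.0442, 0.0272 and 0.0367), where 3.42% of those tested passed, and all 3 with array weights, where 2.87% passed. With a variance trend, under which 2.11% of all probe sets passed, the last 2 of these passed, and the mean of all 4 probe sets passed at a difference of 0.78 (limma, adjusted p = 0.0464), where 1.47% of all genes passed on such means. With any single array left out none of them passed. The dimmest Nrp2 probe set differed by 0.57 ± 0.34 with overlapping values (limma, adjusted p = 0.514).

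The Nrp2 promoter is shown beside these values as the same kind of window, the 250 bases before the RefSeq start (GRCm38.p6, plus strand, chr1:62703067-62703316). It holds no match to CACCTG on either strand, hence no capitals.
Nrp2: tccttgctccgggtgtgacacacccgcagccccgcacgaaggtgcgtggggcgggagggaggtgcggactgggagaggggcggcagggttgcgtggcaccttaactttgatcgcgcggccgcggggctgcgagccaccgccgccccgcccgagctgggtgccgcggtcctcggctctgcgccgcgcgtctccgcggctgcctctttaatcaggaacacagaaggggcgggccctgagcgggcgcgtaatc

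Nrp1, the co-receptor of VEGF-A and semaphorin 3A, behaved unlike Nrp2. Its brightest probe set read 9.48, 9.98 and 9.29 in the controls, and 10.33, 8.16 and 7.72 in miR-200 A, B and C. Here miR-200 B and C lay below every control and miR-200 A above every control. The difference was -0.85 ± 0.71 (limma, adjusted p = 0.660), with an interval from -2.63 to 0.93. A second probe set had the same layout, with 8.12, 8.56 and 7.95 against 8.87, 6.81 and 6.45. The remaining Nrp1 probe sets differed by -0.29 ± 0.40 and 0.01 ± 0.13, with overlapping values.

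**Figure D2:**
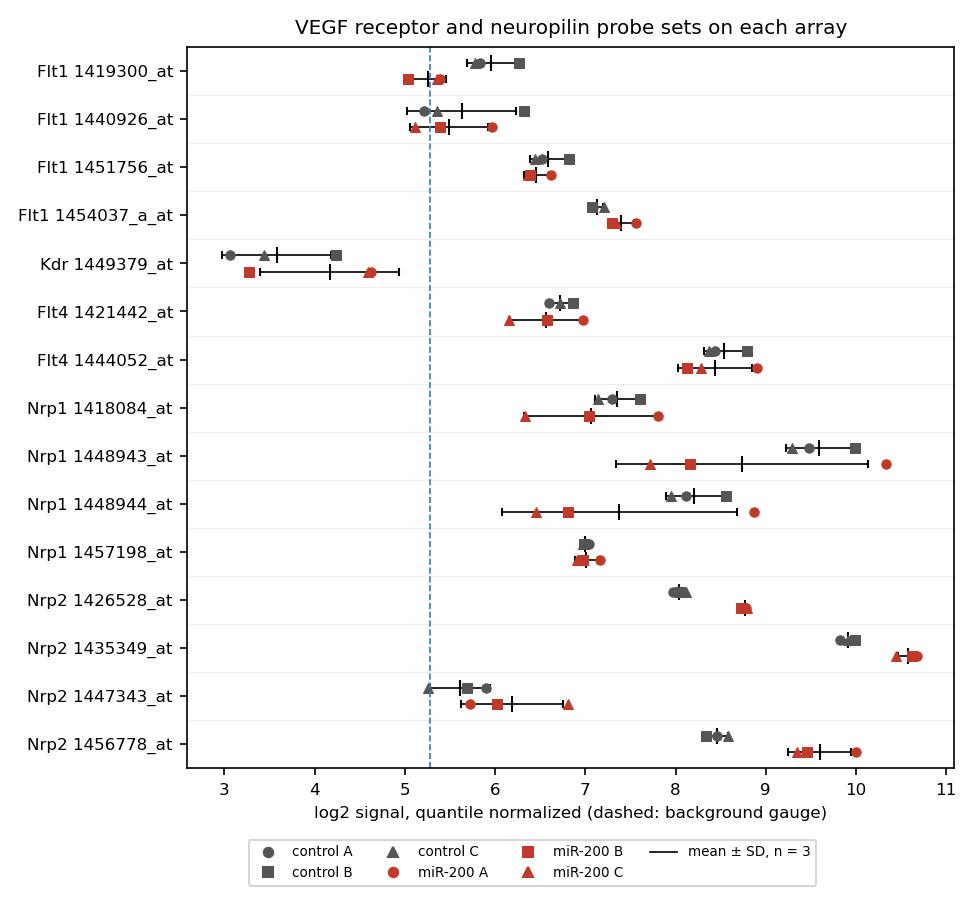
Log2 signal (x axis, quantile normalized) of each receptor and co-receptor probe set (rows) on each of the 6 arrays, control in grey and miR-200 in red, with the mean ± SD of each group (n = 3) in black and the background gauge of 5.28 dashed. In 3 probe sets of Nrp2 the groups are apart, whereas miR-200 A, at 10.33 on the brightest Nrp1 probe set, is parted from miR-200 B and C at 8.16 and 7.72.

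**Figure D3:**
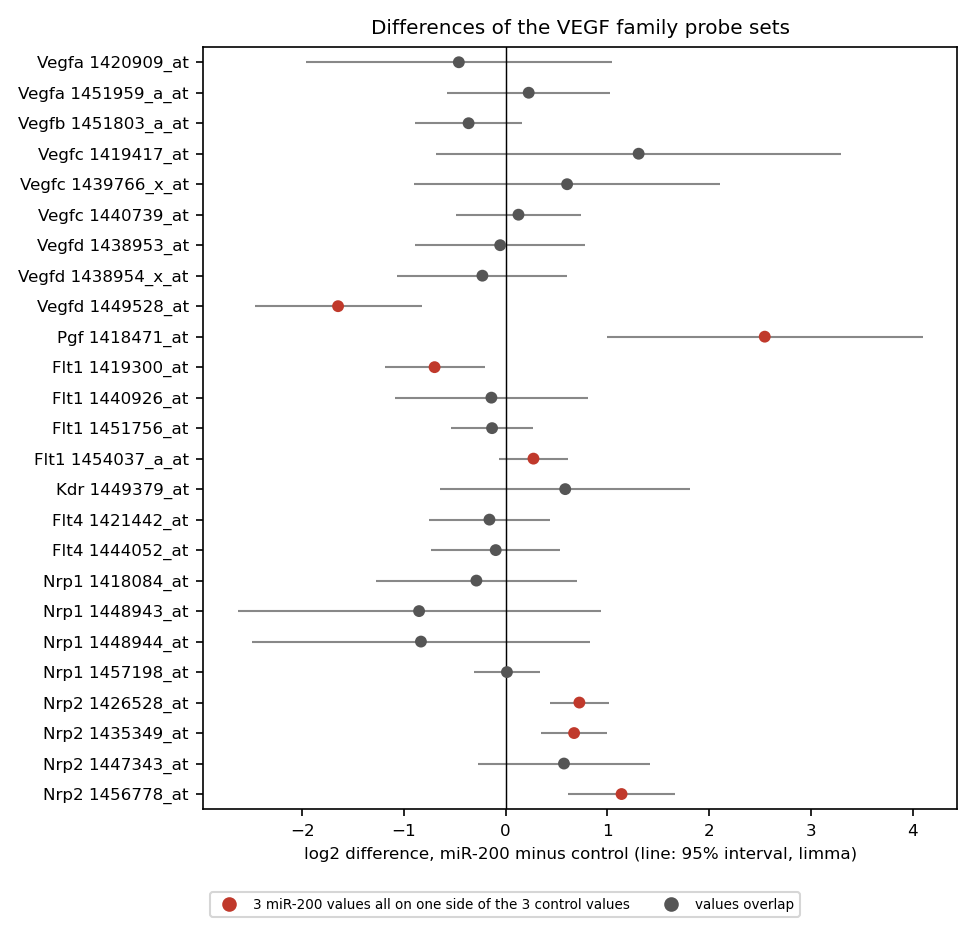
Log2 difference, miR-200 minus control, of the 25 family probe sets (points) with the 95% interval of the limma fit (lines), in red where the groups do not overlap. The 7 red points are 1 of Vegfd, 1 of Pgf, 2 of Flt1 in opposite directions and 3 of Nrp2, and the interval of 1 of them, Flt1 at 0.27, includes 0.

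The cultures control B and miR-200 A differed from the rest of their groups, and much of the family's spread lay there. Leaving out the dimmest 40% of probe sets, their deviations from the group means correlated at 0.71, over arrays of different groups. Of the 25 family probe sets, 17 were higher on both arrays than on the other cultures of the same group, 3 were lower on both and 5 went opposite ways. The same count was not taken over all probe sets, so it cannot be called particular to the family. The brighter Vegfa probe set was 0.86 higher on control B and 1.91 higher on miR-200 A than on the other cultures of its group. The brightest Nrp1 probe set was higher by 0.60 and 2.39. The brightest Nrp2 probe set moved by only 0.13 and 0.15.

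The differences within these 2 arrays and within the other 4 were not alike for all genes. For the brighter Vegfa probe set, miR-200 A minus control B was 0.24, and the mean of miR-200 B and C minus that of control A and C was -0.81. For the brightest Nrp1 probe set the values were 0.35 and -1.45. Without both arrays, limma gave an adjusted p = 0.109 for Vegfa and an adjusted p = 0.117 for Nrp1. Pgf differed by 3.78 between these 2 arrays and by 1.93 among the other 4, and the brightest Nrp2 probe set by 0.69 and 0.67. Of the 25 probe sets, 0 passed in limma without both arrays, where 0.229% of all probe sets passed, and 0 with a term for them, where 2.1% passed, with 9 and 6 of the 25 at an unadjusted p under 0.05. With each array left out in turn, 0 of the 25 passed, beside 0.0711%, 0.309% and 0.127% of all probe sets without control A, B or C and 0.728%, 0.0888% and 0.12% without miR-200 A, B or C. On the values as deposited and on median-centred values 0 passed too, beside 0.726% and 0.822%.

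**Figure D4:**
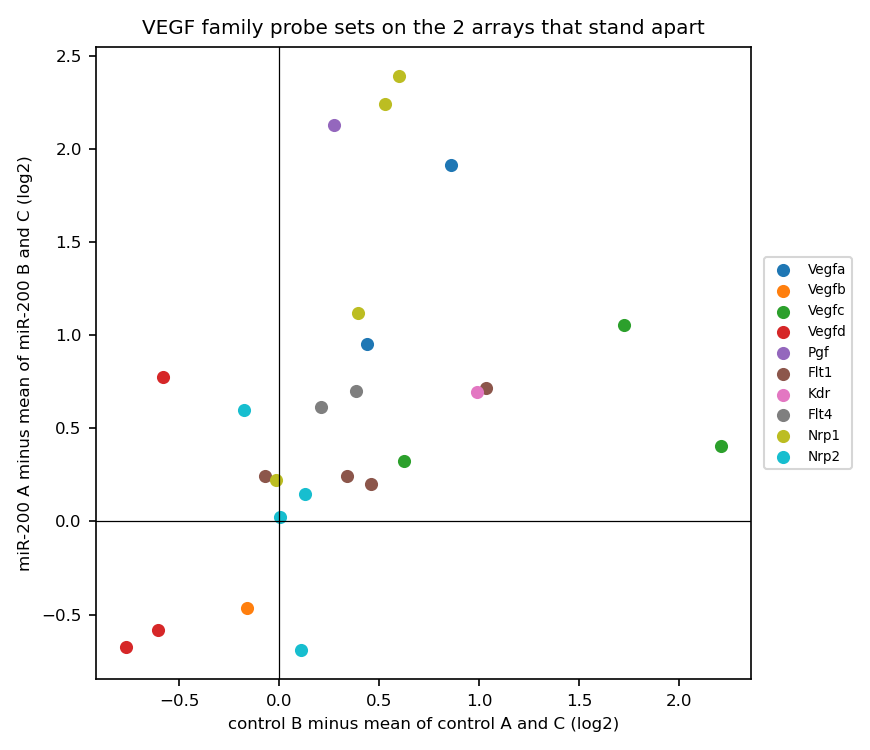
Each point is 1 family probe set, coloured by gene, its x value being the log2 signal on control B minus the mean of control A and C, and its y value that on miR-200 A minus the mean of miR-200 B and C. Of the 25 points, 17 lie in the upper right, among them Vegfa at 0.86 and 1.91, and 3 in the lower left. The same count over all probe sets was not taken.

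Endothelial markers did not separate the groups, and part of them were low. Of 19 endothelial markers measured, 7 lay under the gauge on all 6 arrays and 7 above it on all 6. In 0 of them were the groups without overlap, against 23.5% of all genes. The brightest, Mmrn2 and Ecscr, read 7.92 and 7.62 in controls and 8.11 and 7.62 in miR-200 cells. Esam differed by -0.56 ± 0.22 with overlapping values (limma, adjusted p = 0.348). Pecam1 read 4.71 in controls and 4.72 in miR-200 cells, Emcn 4.95 and 4.83, Cdh5 6.36 and 6.60 and Tek 6.40 and 6.45. Tie1 was at 0 on control B. The log2 of the summed endothelial signal ran from 9.93 to 10.28 in controls and from 10.06 to 10.29 in miR-200 cells. Of 10 fibroblast and pericyte markers, 5 lay under the gauge on all arrays, Acta2 among them, and 0 passed the threshold. Without overlap 2 were higher, Acta2 by 0.45 with every value under the gauge and Rgs5 by 0.37. Of all 18193 genes, 2076 were higher without overlap. The log2 summed signal of the fibroblast and pericyte list was 8.95 on each control array and ran from 8.99 to 9.21 in miR-200 cells.

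The epithelial markers Cdh1 and Krt18 read 13.14 to 13.46 and 13.90 to 13.94 over the 6 arrays. Of the 12 epithelial markers, 3 rose past the threshold, the claudins Cldn3, Cldn4 and Cldn7, and 1 fell, Sftpb. Among all genes 0.275% rose and 0.671% fell past it. Epcam, counted by its brightest probe set, was higher by 0.42 without overlap (limma, adjusted p = 0.344). Its other probe set rose from 6.32 to 11.70, a difference of 5.38 (limma, adjusted p = 0.0546), also without overlap. Krt19 differed by -0.39, lower without overlap (limma, adjusted p = 0.315). The list had a median of 0.13. Its log2 summed signal ran from 15.94 to 15.97 in controls and from 15.80 to 15.89 in miR-200 cells. Of 10 macrophage and leukocyte markers 2 were higher without overlap, Csf1r by 0.45 and Cd79a by 0.28. That stands beside 2076 of all 18193 genes, and 0 of the 10 passed. Single markers differed on control B and miR-200 A in both directions. Cd68 read 8.87 and 8.98 there and 5.73 to 6.81 elsewhere, whereas Mrc1 read 9.72 and 9.61 there and 10.54 to 10.80 elsewhere. Cd14 read 11.86 on miR-200 A and 9.54 to 9.97 on the other arrays, and the leukocyte marker Ptprc 5.29 to 5.91 over all arrays. Adgre1 read 8.55 to 9.04 and Cd3e 4.08 to 5.49 over the 6 arrays. Lyz2 was at 0 on control A and miR-200 A but read 2.79 on control C and 3.67 on miR-200 C. Both Lyz2 and Itgam lay under the gauge on all arrays. The log2 summed signal of the list, lowest on control B and highest on miR-200 A, ran from 11.70 to 11.98 in controls and from 12.03 to 12.71 in miR-200 cells, and 2 of the 10 lay under the gauge on all arrays. The part of these markers in the values of Vegfa, Nrp1 and Pgf was not tested.

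Around the family, 4 genes of 7 lists of the VEGF pathway passed, 1 higher and 3 lower, of 135 measured. The lists were chosen with earlier results of these data known, so the shares over all genes are no independent test of them. Among all genes 0.945% passed, 0.275% higher and 0.671% lower. The lists had groups without overlap in 43 of the 135 genes, against 23.5% of all genes. Of the 135, 21 were higher and 22 lower without overlap, beside 2076 and 2204 of all 18193 genes. Over all genes the share past the threshold was 3.72% without the dimmest 40%, 2.72% with a variance trend, 3.33% with array weights, 0.313% without control B and miR-200 A and 2.64% with a term for these. The median difference was 0.05, beside 0.0014 for all genes.

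Ccbe1, a secreted protein that brings Adamts3 to VEGF-C so that it is cleaved to its active form, rose in the miR-200 cells. Its probe sets differed among themselves. The one that passed most clearly read 5.71, 5.98 and 5.53 in controls A to C and 8.91, 8.30 and 8.85 in miR-200 A to C. That is 7.70-fold higher, a difference of 2.95 ± 0.23 (limma, adjusted p = 0.0126).

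The other probe sets of Ccbe1 were mixed. One went from 3.26 ± 0.61, under the gauge, to 7.10 ± 0.45, which is higher by at least 3.52-fold (limma, adjusted p = 0.0265). The remaining ones differed by 0.24 ± 0.15 and 0.49 ± 0.60 without passing. Without both arrays that stand apart the difference of the first was 2.96, and limma gave an adjusted p = 0.0760. Its adjusted p was also above the threshold without control A, control C or miR-200 C.

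Ccbe1 was the only gene past the threshold of 23 that process, hold or oppose VEGFs, beside 0.945% of all genes. The list had a median of 0.23. Of these genes 6 were higher and 3 lower without overlap, against 23.5% of all genes over both directions. Adamts1, a protease that can bind VEGF-A, read 6.13, 7.35 and 6.11 in the controls and 8.66, 8.43 and 8.56 in the miR-200 cells, a difference of 2.02 ± 0.37 (limma, adjusted p = 0.101). Timp3, a matrix protein that blocks VEGF-A binding to Kdr, had 4 probe sets that were all lower without overlap. Their differences ran from -1.97 to -2.69 and their adjusted p in limma from 0.0991 to 0.239. On its brightest, control B read 11.16, above control A and C at 9.34 and 9.43. Mmp9 lay under the gauge on all arrays.

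Among the neuropilin partners 0 of 13 class 3 semaphorin, plexin and related genes passed (median -0.12). Without overlap 2 were higher and 5 lower, against 23.5% of all genes over both directions. Sema3e, the ligand of Plxnd1, read 11.95 ± 0.21 and 10.56 ± 0.50, a difference of -1.38 ± 0.29 (limma, adjusted p = 0.129), and all 4 of its probe sets were lower without overlap. Plxnd1 itself read 7.32 ± 0.74 and 5.31 ± 0.82, a difference of -2.01 ± 0.55 (limma, adjusted p = 0.213). Sema3b read 6.35 ± 0.35 and 4.39 ± 0.68, the latter under the gauge, at least 2.10-fold lower (limma, adjusted p = 0.121).

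In the list of oxygen and transcription control 0 genes rose and 1 of 14 fell (median -0.03), beside 0.275% and 0.671% of all genes. Egln3, a prolyl hydroxylase that marks Hif proteins for destruction, read 11.65, 11.35 and 11.42 in the controls and 9.92, 9.64 and 9.33 in the miR-200 cells, 3.59-fold lower (limma, adjusted p = 0.0310). Its other probe set differed by -2.01 ± 0.28 without passing (limma, adjusted p = 0.0567). Hif1a, which drives Vegfa in low oxygen, read 12.89 ± 0.27 and 12.77 ± 0.45 on its brightest probe set (limma, adjusted p = 0.891) and was chosen after its values were seen. Epas1, which encodes the related Hif2α and was likewise chosen after its values were seen, had the largest difference of the list. Its brightest probe set read 9.75, 11.73 and 9.35 in the controls and 9.50, 6.73 and 6.83 in the miR-200 cells, a difference of -2.58 ± 0.995 (limma, adjusted p = 0.338). The groups overlapped, with control B high among the controls and miR-200 A high among the miR-200 cells. The other Epas1 probe set differed by -0.19 ± 0.13 (limma, adjusted p = 0.571), lower without overlap. Hif1an differed by 0.38 ± 0.18 (limma, adjusted p = 0.426).

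Of 23 other angiogenic ligands and receptors 2 fell and 0 rose, beside 0.671% and 0.275% of all genes. The list had a median of 0.13. Fgf1, an acidic fibroblast growth factor, read 9.56, 9.21 and 9.53 in the controls and 7.30, 7.43 and 7.45 in the miR-200 cells. That is 4.12-fold lower (limma, adjusted p = 0.0113), a second Fgf1 probe set was 2.57-fold lower (limma, adjusted p = 0.0251), and the third lay under the gauge. Angptl4, a lipoprotein lipase inhibitor with effects on vessels, fell by 2.15 ± 0.22 (limma, adjusted p = 0.0275). Its other probe set lay under the gauge. The related Fgf2 read 5.91 ± 0.06 and 5.20 ± 0.05, at least 1.55-fold lower without passing (limma, adjusted p = 0.0841). Aplnr, with a miR-200 mean under the gauge, was at least 1.74-fold lower without passing (limma, adjusted p = 0.151), and Pdgfb differed by 0.35 ± 0.13 (limma, adjusted p = 0.337). The other probe sets of Aplnr and Pdgfb differed by -0.24 ± 0.46 and -0.08 ± 0.14, with overlapping values.

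The calls of Egln3, Fgf1 and Angptl4 were lost without both arrays that stand apart, at differences of -2.05, -2.11 and -2.43 (limma, adjusted p = 0.0791, 0.0508 and 0.0649). Leaving out single arrays ended the call of Angptl4 in all 6 cases, that of Egln3 in all but the one without miR-200 A, and that of Fgf1 in all but those without control B and without miR-200 A. The differences moved little, from -2.31 to -2.01 for Angptl4, from -1.99 to -1.69 for Egln3 and from -2.15 to -1.98 for Fgf1.

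The receptor signalling genes gave 0 calls of 32 (median 0.04). Without overlap 3 were higher and 4 lower, against 23.5% of all genes over both directions. The adaptor Bcar1 differed by 0.65 ± 0.16, the lipid kinase Sphk1 by 0.52 ± 0.12 and the kinase Prkcb by -0.66 ± 0.18, with adjusted p in limma of 0.178, 0.159 and 0.207. Of 14 genes of receptor phosphatases and trafficking 0 passed (median -0.02). Ptprb, the phosphatase VE-PTP, read 9.52 ± 0.05 and 8.76 ± 0.09, a difference of -0.76 ± 0.12 (limma, adjusted p = 0.0788). Ptpn2 and Ptpn6 differed by 0.57 ± 0.26 and 0.53 ± 0.20, with adjusted p in limma of 0.403 and 0.324. The other Ptpn6 probe set differed by -0.32 ± 0.30, with overlapping values and both group means under the gauge.

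Of 18 genes that VEGF induces in endothelium 0 passed (median 0.09). Without overlap 3 were higher and 3 lower, against 23.5% of all genes over both directions. Ptgs2, the inducible cyclooxygenase, read 11.31 ± 0.31 and 12.37 ± 0.14, a difference of 1.07 ± 0.20 (limma, adjusted p = 0.102). The adhesion molecule Vcam1 differed by -1.62 ± 0.56 (limma, adjusted p = 0.292) and the immediate early gene Egr3 by -2.57 ± 0.68 (limma, adjusted p = 0.200). Both read higher on miR-200 A than on miR-200 B and C, Egr3 with 7.73 against 5.78 and 5.63. The other Egr3 probe set differed by -0.04 ± 0.33 with overlapping values.

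**Figure D5:**
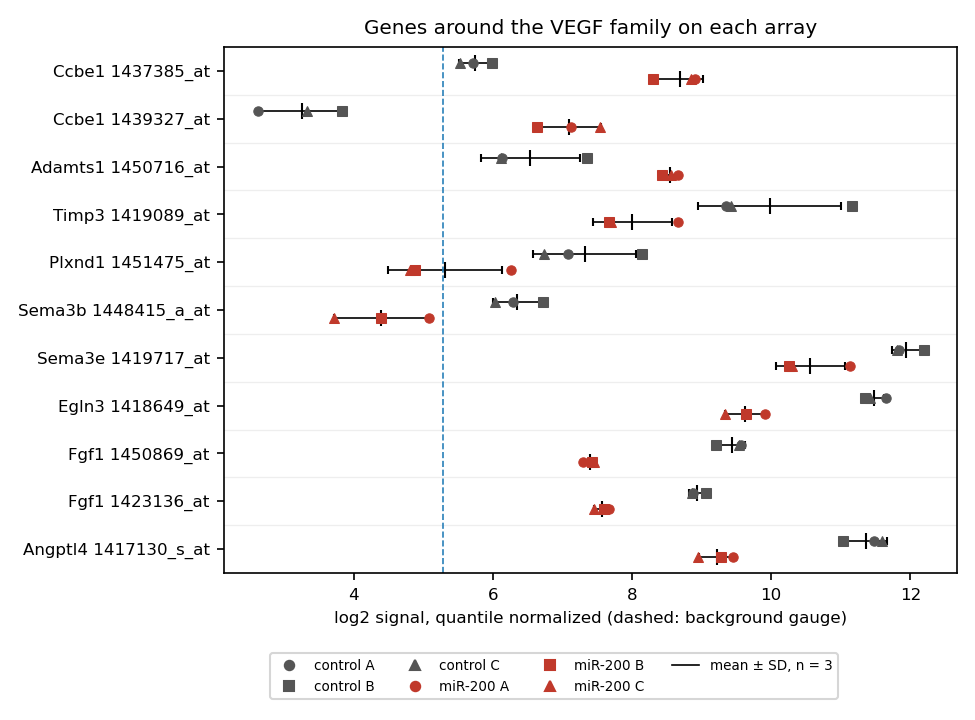
Log2 signal (x axis, quantile normalized) of probe sets of genes that process VEGFs, pair with neuropilins, sense oxygen or act as other angiogenic ligands (rows) on each of the 6 arrays, control in grey and miR-200 in red, with the mean ± SD of each group (n = 3) in black and the background gauge of 5.28 dashed. In every row drawn the groups do not overlap, with Ccbe1 and Adamts1 higher and Timp3, Plxnd1, Sema3b, Sema3e, Egln3, Fgf1 and Angptl4 lower in miR-200 cells.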

How the data were processed

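The deposited table holds 1 log2 signal per probe set and array; the log base was read from the values, since 2 raised to each is a number with 2 decimals. Per the labels, biotinylated cRNA was hybridized to the 430A 2.0 array, yet the table has 45101 probe sets. Summarisation and normalization by the authors are not given in the sources used here. Arrays were quantile normalized with limma 3.58.1 (R 4.3.3), and 64 control probe sets were left out. A gene stands by its brightest probe set with 1 symbol (34945 probe sets had 1, 932 several, 9160 none listed), and 34741 were matched to RefSeq GRCm38.p6 by gene number.

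The test was limma (lmFit, eBayes, two-sided), adjusted by Benjamini-Hochberg over 45037 probe sets, threshold 0.05, and was tested on simulated data. The precision is limited by 3 arrays per group. Members and lists were chosen with earlier results of these data known. Named genes are all family probe sets and, of each list, every gene past the threshold and up to 3 others with the largest differences without overlap. Pecam1, Cdh5, Tek, Emcn and Ptprc were added beforehand. Cdh1, Krt18, Tie1, Mmrn2, Ecscr, Esam, Cd68, Mrc1, Cd14, Lyz2, Itgam, Adgre1 and Cd3e were named outside this rule, as were Hif1a and Epas1. Of 140 symbols in the 7 pathway lists 135 were measured. Alternatives were other normalizations, a filter on dim probe sets, variance models, a replicate block, treatments of the 2 arrays that stand apart, arrays left out and means of probe sets.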

Additional observations from a re-analysis of the deposited data

How the results depend on the processing

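The count of 0 family probe sets past the threshold became 3 without the dimmest 40% of probe sets, 2 with a variance trend and 4 with array weights; the count of 0 family genes became 1 without the dimmest 40%, 1 with array weights and 1 when each gene's probe sets were averaged. In these settings 3.42%, 2.11% and 2.87% of all probe sets and 3.72%, 3.33% and 1.47% of all genes passed. These calls were probe sets of Nrp2, joined with array weights by the dimmest one of Vegfd. Without 1 array both counts ranged from 0 to 0. The 4 pathway genes, recomputed in settings chosen after seeing the data, became 8 without the dimmest 40%, 9 with a variance trend, 12 with array weights, 16 with the 2-level term, 0 without both arrays that stand apart and 0 with the replicate block, and ranged from 0 to 4 without 1 array.

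Of 354 family values under alternatives, 326 kept direction and side of the threshold, 10 gained a call and 18 changed sign, 0 of these with a call. The brightest Vegfd probe set had 0.015 as deposited and 0.0087 with array weights, and -0.31 to 0.21 without 1 array. The Nrp1 probe set with the smallest difference had -0.010 after centring, -0.028 under array weights and -0.066 when both arrays were left out, and -0.061 to 0.066 without 1 array. The brightest Flt1 probe set had -0.17 with the mean of probe sets. Without 1 array the other sign changes ranged from -0.38 to 0.20 (1 of Flt1), -0.33 to 0.057 and -0.36 to 0.048 (Flt4), -0.66 to 0.079 (1 of Nrp1), -0.090 to 0.44 (the dimmer of Vegfa) and -0.057 to 0.33 (1 of Vegfc). Among markers, Pecam1 had -0.00083 centred and -0.24 to 0.19 without 1 array, Tek -0.019 with array weights and -0.021 to 0.12, Ptprc 0.043 with array weights, 0.083 without both arrays and -0.25 to 0.055, and Emcn -0.38 to 0.11. The cause was not tested.

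A replicate block on the culture letter left 0 calls: 0 family probe sets passed, with 5 at an unadjusted p under 0.05 in limma, and 0 of 45037 probe sets in all. Same-letter arrays had deviations from their group means correlated at -0.58, -0.67 and 0.43. Control B and miR-200 A, of different letters, had the largest deviations and weigh most in these values. Whether the letters pair the cultures cannot be told from them. Signal near background limits Vegfc, Kdr and 1 probe set of Vegfd.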
